A study of Mus musculus with 6 samples.

Results

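The genes described here are a set of 42 that respond to interferon or serve the presentation of peptides on class I molecules, chosen by symbol. Of these, 41 had a row in the count table of 13226 genes, and Mx1 was not analysed here. They were measured by RNA-sequencing of polyadenylated RNA from whole tibialis anterior (TA) muscles of male C57BL/6 mice that were injected at 8 weeks of age and whose muscles were taken 7 days later. Of the 6 muscles, 3 had received AAV6:Yap-shRNA, an adeno-associated virus that carries a short hairpin RNA against the transcriptional co-activator Yap1, and 3 had received a control vector. The sample titles call that control an empty vector, and the vector field names AAV6:LacZ-shRNA, so it is called control here. The labels state that the 2 TA muscles of each of 3 animals were compared, and every muscle, control ones included, had been injected with AAV6. For the Yap-shRNA vector the labels give a plasmid that also carries eGFP and a CMV promoter, which is not restricted to muscle fibres, and whole muscle gives RNA of fibres and of the cells between them.

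Interferons are secreted when cells sense foreign nucleic acid. They bind paired receptors that act through Jak kinases, and a complex that holds Stat2 and Irf9 then enters the nucleus and binds the interferon-stimulated response element (ISRE). The gamma-activated site (GAS) serves above all the response to interferon gamma. The genes switched on in this way encode antiviral proteins, guanylate-binding and immunity-related GTPases, and the machinery that cuts, transports and loads peptides on class I molecules. Resting muscle fibres are known for low class I levels, which rise in inflamed muscle.

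Library totals ranged from 11987167 to 12710393 counts, and no gene of the table had fewer than 60 reads over the 6 libraries. A gene with no row therefore has no level here. The 10 muscle fibre markers, among them Ckm and Acta1, all had a row and together took 141994 to 173841 CPM (counts scaled to library size) of a library. The targeted gene, Yap1, was checked first. It had 915, 781 and 833 reads in control muscles 1 to 3 and 381, 311 and 495 reads in Yap-shRNA muscles 1 to 3. Its level was 68.3 ± 2.96 CPM in controls and 31.8 ± 7.80 CPM in Yap-shRNA muscles (mean ± SD, n = 3 muscles each), with no overlap between the groups, a log2 fold change of -1.10 (standard error 0.16). The adjusted p of this change depended on the tool: edgeR's quasi-likelihood test gave 0.436 and DESeq2 gave 5.85e-07.

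RefSeq promoters on GRCm38.p6, of 250 bases before to 50 after the start, were at hand for 33 of the 41 genes, as 39 promoters. Tap2, Nlrc5, Dhx58, Zbp1, Usp18, Parp14, Ifi27 and Iigp1 had none in that table. The core of the ISRE was searched as GAAANNGAAA and the GAS as TTCNNNGAA, on both strands. The ISRE core lay in the promoters of 17 of 33 genes (51.5%), against 3.99% of the 27025 genes with a promoter in the table. The GAS letters lay in 8 of 33 (24.2%), against 9.55%, and the 2 motifs could overlap. A longer form of the ISRE, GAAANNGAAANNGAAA, occurred in 4 of 33 genes, Bst2, Gbp3, Irgm1 and Isg15, against 0.133% of all. The promoters below belong to genes on which the values turn. They are genes described with full values, the gene with the lowest fold change (Isg15), and a gene from each end of the order by co-variation (Gbp2 and Eif2ak2). Of the genes with full values, Trim25 and Irf9 held neither motif, and Trim25 is shown for that. Each is written 5′ to 3′ on the strand of its gene, with matches to the ISRE core or the GAS in capitals.
B2m, chr2:122147437-122147736, plus strand: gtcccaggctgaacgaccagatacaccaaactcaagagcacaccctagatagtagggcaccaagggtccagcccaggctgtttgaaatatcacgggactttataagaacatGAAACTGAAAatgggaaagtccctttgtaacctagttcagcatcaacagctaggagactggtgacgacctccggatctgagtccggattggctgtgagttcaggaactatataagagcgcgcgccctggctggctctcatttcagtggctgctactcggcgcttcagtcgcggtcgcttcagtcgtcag
Irf1, chr11:53769764-53770063, plus strand: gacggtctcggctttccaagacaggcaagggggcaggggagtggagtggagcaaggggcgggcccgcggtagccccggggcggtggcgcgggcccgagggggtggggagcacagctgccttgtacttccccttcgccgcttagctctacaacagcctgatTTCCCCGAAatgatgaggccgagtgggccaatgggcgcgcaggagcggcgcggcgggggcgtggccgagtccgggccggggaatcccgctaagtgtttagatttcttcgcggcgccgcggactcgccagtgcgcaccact
Ifit1, chr19:34640639-34640938, plus strand: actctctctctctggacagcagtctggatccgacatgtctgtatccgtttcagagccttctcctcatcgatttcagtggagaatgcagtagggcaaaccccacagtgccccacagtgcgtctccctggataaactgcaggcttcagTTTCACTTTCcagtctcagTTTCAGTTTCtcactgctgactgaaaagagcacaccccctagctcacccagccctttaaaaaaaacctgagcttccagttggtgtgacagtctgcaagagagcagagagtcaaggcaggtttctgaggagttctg
Ifitm3, chr7:141010695-141010994, minus strand: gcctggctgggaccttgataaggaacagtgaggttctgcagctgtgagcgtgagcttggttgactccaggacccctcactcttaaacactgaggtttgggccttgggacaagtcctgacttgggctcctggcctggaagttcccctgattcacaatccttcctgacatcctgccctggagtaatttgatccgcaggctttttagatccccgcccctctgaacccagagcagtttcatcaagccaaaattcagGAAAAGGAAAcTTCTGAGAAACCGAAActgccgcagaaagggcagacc
Isg15, chr4:156200769-156201068, minus strand: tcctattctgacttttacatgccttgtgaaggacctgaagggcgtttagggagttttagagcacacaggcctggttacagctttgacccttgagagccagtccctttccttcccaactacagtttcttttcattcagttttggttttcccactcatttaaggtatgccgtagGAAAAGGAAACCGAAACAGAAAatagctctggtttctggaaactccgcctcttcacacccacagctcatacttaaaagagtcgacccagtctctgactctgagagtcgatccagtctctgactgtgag
Irgm1, chr11:48871371-48871670, minus strand: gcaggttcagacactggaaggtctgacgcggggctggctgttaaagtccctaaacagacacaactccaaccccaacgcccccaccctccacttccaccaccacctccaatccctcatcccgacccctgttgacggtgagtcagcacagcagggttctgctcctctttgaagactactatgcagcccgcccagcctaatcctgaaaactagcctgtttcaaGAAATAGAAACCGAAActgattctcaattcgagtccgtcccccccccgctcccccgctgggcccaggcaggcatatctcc
Igtp, chr11:58199306-58199605, plus strand: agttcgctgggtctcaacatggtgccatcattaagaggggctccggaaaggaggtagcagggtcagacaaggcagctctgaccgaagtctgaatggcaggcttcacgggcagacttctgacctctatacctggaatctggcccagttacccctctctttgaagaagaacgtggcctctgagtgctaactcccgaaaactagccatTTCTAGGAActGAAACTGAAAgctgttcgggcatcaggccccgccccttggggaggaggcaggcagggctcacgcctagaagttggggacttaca
Gbp2, chr3:142620413-142620712, plus strand: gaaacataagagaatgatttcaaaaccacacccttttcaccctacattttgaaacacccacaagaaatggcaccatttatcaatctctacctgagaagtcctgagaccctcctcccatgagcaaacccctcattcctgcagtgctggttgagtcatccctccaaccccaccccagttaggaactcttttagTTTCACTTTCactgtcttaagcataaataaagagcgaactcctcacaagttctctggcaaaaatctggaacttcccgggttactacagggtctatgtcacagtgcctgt
Eif2ak2, chr17:78882523-78882822, minus strand: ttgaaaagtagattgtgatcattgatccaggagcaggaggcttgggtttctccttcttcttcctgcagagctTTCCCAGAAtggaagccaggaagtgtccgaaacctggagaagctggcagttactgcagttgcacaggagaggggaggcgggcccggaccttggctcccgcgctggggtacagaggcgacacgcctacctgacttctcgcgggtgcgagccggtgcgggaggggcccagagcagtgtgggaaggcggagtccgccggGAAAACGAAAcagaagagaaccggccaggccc
Trim25, chr11:88999153-88999452, plus strand: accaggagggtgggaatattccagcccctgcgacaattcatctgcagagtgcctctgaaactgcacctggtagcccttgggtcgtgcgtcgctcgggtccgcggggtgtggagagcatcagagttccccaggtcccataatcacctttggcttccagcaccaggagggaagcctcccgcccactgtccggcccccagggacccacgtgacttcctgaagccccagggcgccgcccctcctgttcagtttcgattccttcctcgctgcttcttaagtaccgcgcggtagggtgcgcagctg

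Isg15 held 3 overlapping ISRE cores, which began 78, 72 and 66 bases before the start. Irgm1 held 2, at 30 and 24 bases before it, and Ifit1 held 2 on the opposite strand, at 104 and 85. In Ifitm3 both cores lay just after the start, at bases 3 and 20, and a GAS match at base 14 shared letters with the second of them. Igtp carried a GAS match 45 bases and an ISRE core 34 bases before the start. Irf1 carried no ISRE core in this window and a GAS match 90 bases before the start. A match is a string of letters and no evidence of binding in muscle.

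Measured per kb of exon, so that genes of different length could be set side by side, the class I light chain led the set. In control muscles B2m stood at 141 ± 22.5 CPM per kb, higher than 98.2% of the genes of the table. It was followed by Ifitm3, a membrane protein that blocks the entry of viruses, at 60.6 ± 10.2, and by the class I heavy chains H2-D1 at 39.9 ± 8.93 and H2-K1 at 31.6 ± 6.52. The 2 heavy chains lay within their spread of each other. Ifi27 at 18.4 ± 3.40, Psme1 at 16.7 ± 1.16 and Bst2 at 14.6 ± 2.52 came next and overlapped in the same way. At the other end were the class I transactivator Nlrc5 at 0.265 ± 0.0972 CPM per kb, Ifi44 at 0.210 ± 0.0645 and the nucleic acid sensor Zbp1 at 0.160 ± 0.0333. Not scaled to length, the median level of the set in controls was 7.43 CPM per gene, against 12.1 CPM over all genes. H2-D1 and H2-K1 share long stretches of sequence with each other and with other class I genes, as do Ifit3 with its near copy and the Gbp genes with each other, so their reads may be divided imprecisely.

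**Figure D1:**
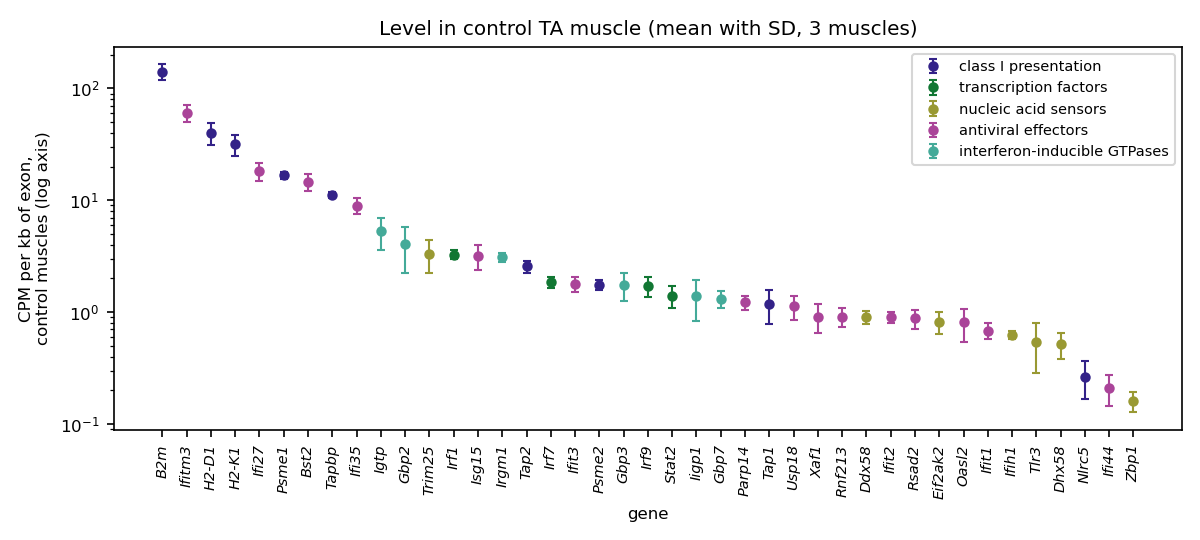
Level of each of the 41 genes in control TA muscle, in CPM per kb of exon on a log axis, as the mean and SD of 3 muscles and coloured by role. B2m stood highest at 141 CPM per kb and Zbp1 lowest at 0.160.

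At 7 days after injection of AAV6:Yap-shRNA, none of these genes differed from control by an amount that passed the test. With edgeR's quasi-likelihood test and adjustment over 13226 genes, 0 of 41 were called, and 0 of all genes (0%) were. The adjusted p of every one of the 41 genes was 1.00, and DESeq2, the edgeR likelihood ratio test and limma-voom also called 0 of the 41. At an unadjusted p under 0.05, 3 of the 41 genes were higher, Tap2, Zbp1 and Ifitm3, and 0 were lower, where 0.885% of all genes were higher and 0.869% lower. Without control muscle 1 these numbers were 6 higher (Tap1, Irf9, Zbp1, Ifitm3, Gbp2 and Igtp) and 0 lower, beside 3.82% and 3.42% of all genes, and without control muscle 3 they were 0 and 0. Fold changes of the 41 genes ran from -0.31 for Isg15 to 0.93 for Zbp1 on the log2 scale. Of them, 25 were above 0 and 16 below, beside 6468 above and 6758 below of all 13226 genes. Their median was 0.07, beside a median of -0.0029 over all genes. The median turned to -0.016 without control muscle 3, fell to 0.023 without Yap-shRNA muscle 2, and reached 0.18 without control muscle 1.

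The data also bound the size of any change. The 95% confidence interval of the fold change lay within 2-fold in either direction for 38 of the 41 genes (92.7%), as it did for 86.9% of all genes. The exceptions were Zbp1, Ifit1 and Igtp, whose intervals reached past a doubling. A 1.5-fold bound in either direction held the interval of 16 genes (39.0%), against 63.3% of all genes. Most of the set was therefore not bounded to 1.5-fold at this depth and number of muscles.

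The groups of muscles separated fully for 2 of the 41 genes, Zbp1 and Ifitm3, in which all 3 Yap-shRNA muscles lay above all 3 controls, and for 0 in the other direction. Over all genes the shares were 2.56% above and 2.71% below, so 2 of 41 is near what the table as a whole shows. The exact permutation test of a single gene cannot give less than 0.10 with 3 against 3 muscles, and gave 0.10 for both. When control muscle 1 was left out, 12 of 41 genes lay fully above the remaining controls (29.3%), against 11.8% of all genes in the same 5 muscles. These were B2m, Tap1, Tapbp, Nlrc5, Stat2, Irf9, Ifih1, Zbp1, Ifitm3, Gbp2, Igtp and Irgm1. Below the remaining controls lay 1 gene, Isg15, against 12.0% of all. That fit gave the most genes above. With any other single muscle left out, 2 to 6 of the 41 lay fully above (4.88 to 14.6%), against 5.43 to 6.78% of all genes.

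Class I presentation was represented by 9 genes. H2-D1 and H2-K1 encode heavy chains, B2m the light chain, Tap1 and Tap2 the peptide transporter, Tapbp the chaperone tapasin that joins it to class I, Psme1 and Psme2 the proteasome activator PA28, and Nlrc5 the transactivator of class I genes. The fold changes of 7 were above 0 and of 2 below, with a median of 0.15 and 0 called. That median was 0.28 without control muscle 1 and 0.06 without control muscle 3. B2m, the highest, had 1843, 1369 and 1301 reads in the controls and 1800, 1793 and 1442 after Yap-shRNA. The groups overlapped, since control muscle 1 lay above Yap-shRNA muscles 2 and 3 once scaled to library size, at 143 CPM against 138 and 115. Its means were 122 ± 19.3 and 135 ± 18.2 CPM, a log2 fold change of 0.15 (standard error 0.14), which was 0.28 without control muscle 1 and 0.06 without Yap-shRNA muscle 1. Tap2 had the largest fold change of the group, with 117, 132 and 109 reads in controls and 158, 165 and 137 in Yap-shRNA muscles. Its level went from 9.70 ± 1.16 to 12.3 ± 1.21 CPM, a log2 fold change of 0.34 (standard error 0.15; unadjusted p = 0.048 by edgeR's quasi-likelihood test, adjusted p = 1.00). Control muscle 2, at 11.0 CPM, was just above Yap-shRNA muscle 3, at 10.9 CPM. Of the exonic bases of Tap2, 18.5% are shared with other annotated genes on the opposite strand, and no strand setting is stated, so some of its reads may belong to those.

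Tap1, the partner of Tap2, was split within the controls, with 116 reads in control muscle 1 and 58 and 68 in the others, against 110, 118 and 72 in Yap-shRNA muscles. Nlrc5 was likewise highest in control muscle 1 among the controls, with 41, 23 and 20 reads, and 30, 35 and 26 in Yap-shRNA muscles. In both genes controls 2 and 3 lay below all 3 Yap-shRNA muscles, and control muscle 1 lay above at least 1 of them. H2-D1 ran from 78.2 to 124 CPM in controls and from 105 to 120 CPM in Yap-shRNA muscles, and H2-K1 from 72.9 to 111 CPM and from 77.3 to 102 CPM. Their log2 fold changes were 0.15 and -0.01. Tapbp went from 40.2 ± 2.56 to 43.8 ± 1.71 CPM, a log2 fold change of 0.12, and had the narrowest interval of the 41, from -0.09 to 0.33. Tapbp shares 29.0% of its exonic bases with Zbtb22, on the same strand, and Gm19412. Psme1 and Psme2 had log2 fold changes of -0.02 and 0.18.

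The transcription factors were Stat2 and Irf9, which act together at the ISRE, Irf7, which drives interferon genes themselves, and Irf1, a target of interferon gamma. Irf1 was the highest of the 4, with 173, 139 and 169 reads in controls and 187, 173 and 190 in Yap-shRNA muscles. Its level was 13.0 ± 1.20 and 14.7 ± 1.26 CPM, a log2 fold change of 0.18 (standard error 0.13). Irf9 had the largest fold change, 0.29 (standard error 0.17). It had 145, 97 and 98 reads in controls and 133, 149 and 139 in Yap-shRNA muscles, so that the Yap-shRNA muscles lay close together, at 11.2 ± 0.188 CPM, while control muscle 1, at 11.3 CPM, lay among them and the other controls, at 8.11 and 8.04 CPM, lay below. Without control muscle 1 its log2 fold change was 0.48, and without control muscle 3 it was 0.21. Stat2 had a log2 fold change of 0.23 and Irf7 of -0.07, with a median over the 4 genes of 0.20, or 0.09 without control muscle 2. That of Stat2 ran from 0.07 to 0.38 with 1 muscle left out at a time.

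The sensors of foreign nucleic acid were Ifih1, Ddx58 and Dhx58, which detect viral RNA in the cytosol, Tlr3, which detects double-stranded RNA in endosomes, Eif2ak2, the kinase that halts translation, Trim25, the ubiquitin ligase that acts on Ddx58, and Zbp1, which binds Z-form nucleic acid. Their median log2 fold change was 0.16, or -0.10 without control muscle 3, and 0.03 without Yap-shRNA muscle 1. Zbp1 rested on few reads, with 9, 6 and 6 in controls and 10, 16 and 15 in Yap-shRNA muscles. All 3 Yap-shRNA muscles were higher, and the closest pair differed by a single read. The mean went from 0.565 ± 0.118 to 1.09 ± 0.216 CPM, a log2 fold change of 0.93 (standard error 0.37; unadjusted p = 0.032 by edgeR's quasi-likelihood test, adjusted p = 1.00). The 95% interval of this fold change ran from 1.07-fold to 3.40-fold. Trim25, the highest of the group, had 332, 168 and 210 reads in controls and 255, 221 and 185 in Yap-shRNA muscles. Control muscle 1 was the highest of the 6 and the groups overlapped, with 19.0 ± 6.10 and 17.7 ± 3.38 CPM. The log2 fold change of Trim25 was -0.11 (standard error 0.22), or 0.18 without control muscle 1 and -0.29 without control muscle 2. The other sensors had log2 fold changes of 0.21 for Eif2ak2, 0.16 for Tlr3, 0.16 for Ifih1, -0.01 for Ddx58 and -0.17 for Dhx58. Eif2ak2 ran against the other genes, with its lowest level in control muscle 1, at 3.19 CPM against 4.43 to 4.94 CPM in the other 5 muscles.

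**Figure D2:**
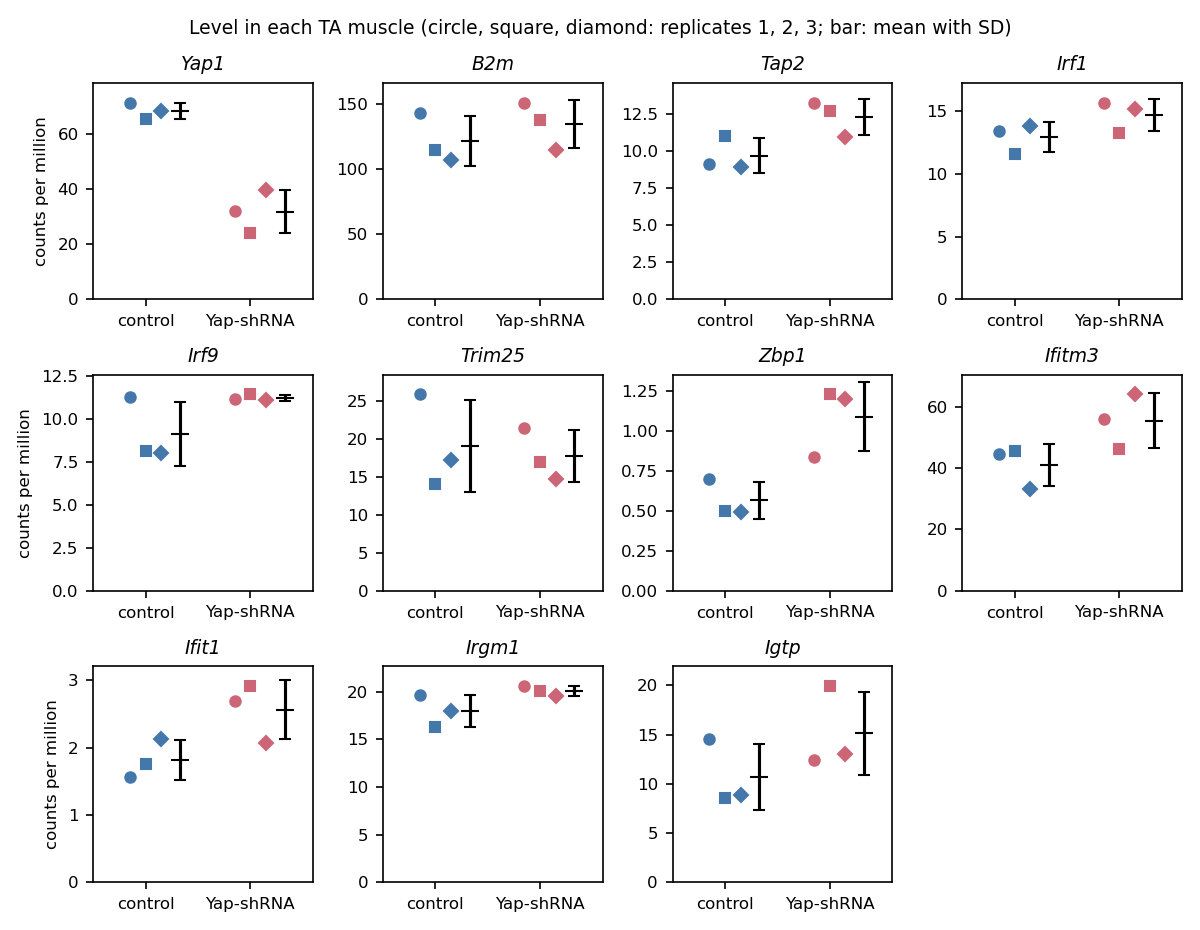
CPM of Yap1 and of the 10 genes described with full values, in each of 3 control (blue) and 3 Yap-shRNA (red) TA muscles, with the mean and SD of each group beside the points. Yap1, Zbp1 and Ifitm3 do not overlap between groups, and control muscle 1 (circle) lies apart from the other controls in Irf9, Trim25 and Igtp.

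Among 15 antiviral effectors the fold changes lay on both sides of 0, with 6 above and 9 below and a median of -0.02. That median was 0.07 without control muscle 1, 0.04 without Yap-shRNA muscle 3 and -0.07 without control muscle 2. Ifitm3, the most abundant of them, had 571, 546 and 404 reads in controls and 667, 603 and 803 in Yap-shRNA muscles. Scaled to library size, the highest control stood at 45.7 CPM and the lowest Yap-shRNA muscle at 46.3 CPM, so the groups were separated by a narrow margin. The mean went from 41.1 ± 6.90 to 55.4 ± 8.88 CPM, a log2 fold change of 0.43 (standard error 0.15, unadjusted p = 0.021 by edgeR's quasi-likelihood test, adjusted p = 1.00). It was 0.30 without control muscle 3 and 0.31 without Yap-shRNA muscle 3. Ifit1, which binds viral RNA that lacks the host's cap methylation, had the largest fold change of the group. It had 20, 21 and 26 reads in controls and 32, 38 and 26 in Yap-shRNA muscles, with 1.82 ± 0.293 and 2.56 ± 0.436 CPM and a log2 fold change of 0.49 (standard error 0.26). Yap-shRNA muscle 3, at 2.07 CPM, lay below control muscle 3, at 2.13 CPM. Its neighbours on chromosome 19 and relatives, Ifit2 and Ifit3, had log2 fold changes of -0.06 and -0.19.

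Isg15, the ubiquitin-like protein that is among the strongest interferon targets, had the lowest fold change of the 41, -0.31 (standard error 0.30), or -0.51 without control muscle 1 and -0.13 without Yap-shRNA muscle 3. It had 22, 32 and 35 reads in controls and 25, 30 and 18 in Yap-shRNA muscles, and the groups overlapped. Usp18, the protease that removes Isg15 and restrains the receptor, stood at -0.21. Rsad2 (viperin) and Oasl2 had log2 fold changes of -0.07 and 0.07, Bst2 (tetherin), which holds virions at the membrane, of 0.07, and Ifi44 of -0.14. Those of Xaf1, Ifi35, Rnf213, Ifi27 and Parp14 were 0.13, 0.04, -0.02, -0.02 and -0.03.

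The interferon-inducible GTPases, which attack the vacuoles of intracellular parasites, were the role whose mean level varied most between muscles of a group. Their mean level relative to each gene's average was 0.36 log2 units in control muscle 1, -0.28 and -0.30 in controls 2 and 3, and 0.19, 0.30 and -0.26 in Yap-shRNA muscles 1 to 3. Control muscle 1 was thus closer to Yap-shRNA muscles 1 and 2 than to the other controls, and Yap-shRNA muscle 3 closer to controls 2 and 3. Igtp had 187, 103 and 108 reads in controls and 148, 260 and 163 in Yap-shRNA muscles. Its mean went from 10.7 ± 3.36 to 15.1 ± 4.20 CPM, a log2 fold change of 0.50 (standard error 0.25). Without control muscle 1 this was 0.79, and without Yap-shRNA muscle 2, the highest, 0.25. Of its exonic bases, 8.0% overlap Irgm2 on the same strand. Irgm1, a regulator of the family, had the highest CPM of the 6 before scaling to length, with 253, 195 and 219 reads in controls and 246, 262 and 245 in Yap-shRNA muscles. The levels were 18.0 ± 1.69 and 20.1 ± 0.550 CPM, a log2 fold change of 0.16 (standard error 0.11), and control muscle 1, at 19.7 CPM, lay just above Yap-shRNA muscle 3, at 19.5 CPM. Iigp1 varied widely in both groups, with 151, 79 and 71 reads in controls and 116, 170 and 70 in Yap-shRNA muscles, and a log2 fold change of 0.23. Gbp2 had 197, 91 and 91 reads in controls and 150, 147 and 102 in Yap-shRNA muscles. Its log2 fold change was 0.07, or 0.50 without control muscle 1 and -0.11 without control muscle 3. Gbp3 and Gbp7 stood at 0.07 and -0.15.

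**Figure D3:**
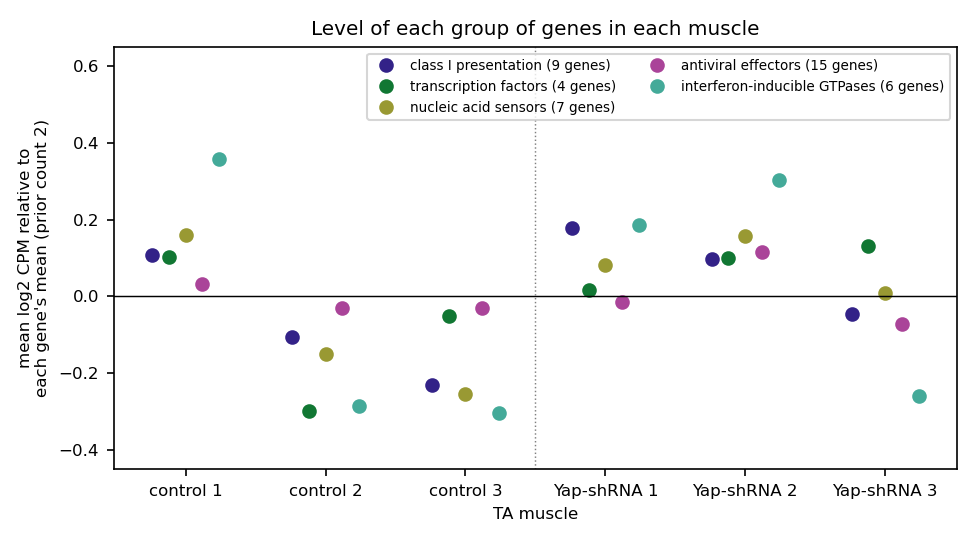
Mean log2 CPM of each role group in each TA muscle, relative to each gene's mean over the 6 muscles (points, 4 to 15 genes each). The interferon-inducible GTPases range from -0.30 in control muscle 3 to 0.36 in control muscle 1, and the mean of the antiviral effectors stays between -0.07 and 0.12. Single antiviral effectors ran in opposite directions over the muscles, so their mean hides part of their variation.

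The pattern over muscles was shared by many of the genes. Control muscle 1 held the highest level of 14 of the 41 (34.1%, against 22.1% of all genes) and control muscle 3 the lowest level of 14 (34.1%, against 15.0%). Each gene's log2 CPM, taken as the deviation from its group's mean, was correlated with the mean deviation of the other 40 genes over the 6 libraries. The median r of the 41 genes was 0.57, beside 0.0069 for all other genes, and r was above 0.5 for 22 of 41 (53.7%) and for 22.6% of the other genes. These are descriptions over 6 libraries that share animals and preparation, and the deviations within a group sum to 0. With 1 muscle left out at a time, the median r ran from 0.40, without control muscle 1, to 0.75.

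The genes most like the rest were Nlrc5 (r = 0.96), Iigp1 (0.95), Gbp2 (0.94), Tap1 (0.94), Gbp7 (0.92), Parp14 (0.90) and B2m (0.89). Among the other class I genes r was 0.87 for H2-K1, 0.75 for H2-D1, 0.30 for Tapbp and 0.06 for Tap2. Running the other way were Eif2ak2 (-0.84), Psme2 (-0.74), Usp18 (-0.72), Ifi35 (-0.70), Ifi27 (-0.57), Isg15 (-0.31) and Psme1 (-0.30). The set did not move as a single unit: Ifi27 was lowest in control muscle 1, and Isg15 and Usp18 lowest there but for a single Yap-shRNA muscle, where Gbp2 and Iigp1 were high. Outside the gene lists the closest deviations from group means were those of Fyco1 (r = 1.00), Vgll4 (0.99), Ino80d (0.99), Utp20 (0.99) and Nol11 (0.99). These were the highest values among all the genes compared over these 6 libraries. Over the levels themselves, with group means kept, r was 0.75 for Fyco1 and 0.34 for Ino80d. It was 0.98 for Vgll4, 0.93 for Utp20 and 0.99 for Nol11.

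**Figure D4:**
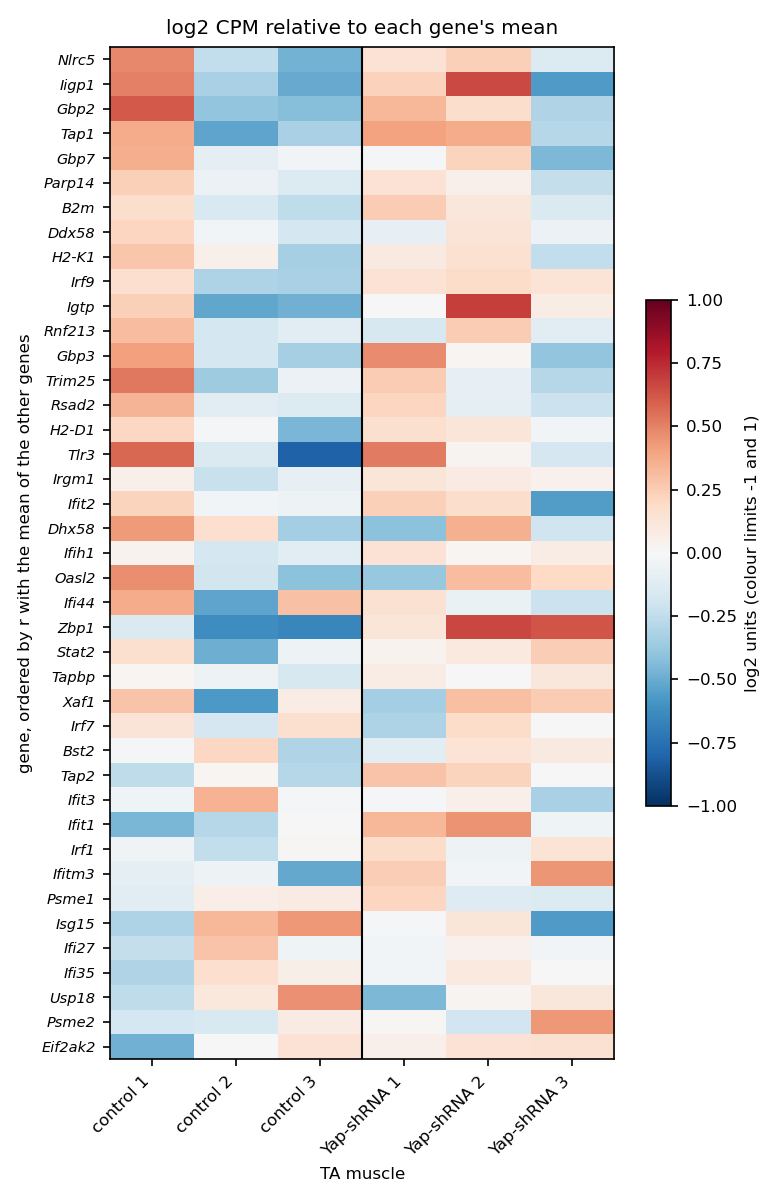
Log2 CPM of the 41 genes in each of the 6 TA muscles relative to each gene's mean (colour), ordered from the highest to the lowest r with the other genes. Genes at the top, from Nlrc5 (r = 0.96), are high in control muscle 1 and low in control muscle 3, and genes at the bottom, to Eif2ak2 (r = -0.84), are not.

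Cell type markers differed between the same muscles. The 12 macrophage markers summed to 260, 158 and 108 CPM in control muscles 1 to 3 and to 181, 221 and 235 CPM in Yap-shRNA muscles 1 to 3, and none was at 0. Of these 12, 11 had a fold change above 0 and 0 were called, with a median log2 fold change of 0.34. Control muscle 1 was thus high and control muscle 3 low for macrophage markers too, as for the genes of the GTPase and class I groups. Yap-shRNA muscle 3 was second for macrophage markers and low for the GTPases. The class I genes differed from the macrophage markers in the Yap-shRNA muscles too. Their sum was highest in Yap-shRNA muscle 1, at 483 CPM, where macrophage markers summed to 181 CPM. In Yap-shRNA muscle 3 the class I sum was 399 CPM, below that of Yap-shRNA muscles 1 and 2. The 8 fibroblast markers summed to 2141, 1367 and 1165 CPM in controls and 1410, 1371 and 2474 CPM in Yap-shRNA muscles. In Yap-shRNA muscle 3, Col1a1 gave 826 and Col3a1 862 CPM of that sum. Fold changes of 7 fibroblast markers were above 0 and of 1 below, with a median log2 fold change of 0.20 and 0 called. Among the 10 muscle fibre markers 1 was above 0 and 9 below, with a median of -0.08. The 10 endothelial markers summed to between 545 and 597 CPM in all 6 muscles, with 6 above 0, 4 below and a median of 0.0051. Of 12 markers of T and natural killer cells 0 had a row, of 5 of B cells only Ighm, of 6 of neutrophils only Csf3r, and of 7 of dendritic cells 4. The part of these cells in the levels above was not tested, and in bulk RNA fewer cells of a type and less RNA per cell cannot be told apart.

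The rest of the pathway was read from further lists. Of 10 interferon genes 0 had a row, so no level of a ligand can be given. Of 103 other pathway genes with a row, edgeR's quasi-likelihood test called 0 and DESeq2 called 0, and the median log2 fold change was 0.06. At an unadjusted p under 0.05 by the quasi-likelihood test, 2 of the 103 were higher and 0 lower. Over all genes 0.885% were higher and 0.869% lower, so 2 of 103 is near what the table as a whole shows. Receptors and Jak-Stat genes (10 genes) had a median of 0.02, with Ifnar1, a chain of the type I receptor, at 13.0 ± 1.52 and 13.6 ± 1.07 CPM, and Ifngr1, a chain of the interferon gamma receptor, at 31.5 ± 4.41 and 31.1 ± 1.93 CPM. Of 16 genes that induce interferon, 11 had a fold change above 0, beside 6468 of all 13226 genes, with a median of 0.08. Rela, a subunit of NF-kappaB, had 317, 310 and 292 reads in controls and 363, 372 and 368 in Yap-shRNA muscles, all above the controls, a log2 fold change of 0.24 (standard error 0.09; unadjusted p = 0.026 by edgeR's quasi-likelihood test, adjusted p = 1.00). Of 9 brakes on interferon signalling, Socs3, an inhibitor of Jak kinases, had 81, 49 and 51 reads in controls and 63, 132 and 154 in Yap-shRNA muscles. Its log2 fold change was 0.92 (standard error 0.31; unadjusted p = 0.015 by edgeR's quasi-likelihood test, adjusted p = 1.00), and Yap-shRNA muscle 1 lay within the controls.

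Of 45 other interferon-stimulated genes the fold changes of 28 were above 0 and of 17 below, with a median of 0.09. Cxcl10, a chemokine that draws T cells, had the largest, 1.23 (standard error 0.62), from 13, 3 and 3 reads in controls and 24, 12 and 9 in Yap-shRNA muscles. It was 2.24 without control muscle 1 and 0.68 without Yap-shRNA muscle 1. Ifi205 had 24, 9 and 6 reads and then 20, 19 and 35, a log2 fold change of 0.91 (standard error 0.49), or 1.65 without control muscle 1 and 0.58 without control muscle 3. In both genes control muscle 1 lay above at least 1 Yap-shRNA muscle. The groups did not overlap for Oas2 and Ube2l6, which were higher in all 3 Yap-shRNA muscles, nor for Parp11, which was lower, and these 3 were named for that after their values were seen. Among all genes 2.56% lay above and 2.71% below, so 2 and 1 of 45 are near those shares. The 15 other genes of class I presentation had a median log2 fold change of 0.05, and the 8 of class II presentation of -0.02.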

How the data were processed

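The authors deposited raw counts of reads for each gene and muscle, not normalised. The labels name the genome build GRCm38, bcl2fastq 2.20.0.422, TRIzol extraction and TruSeq libraries of polyadenylated RNA, and the aligner, counter, annotation and strand setting are not given in the sources used here. All 13226 genes had a name and entered the fit, since none fell under a mean of 10 counts. TMM factors scaled the libraries, and edgeR 4.0.16 in R 4.3.3 tested the counts (quasi-likelihood, with no term but group, all 6 muscles, Benjamini-Hochberg adjustment over all genes, threshold 0.05). Standard errors were the log2 fold change over the square root of the test statistic. Log2 CPM for co-variation used a prior count of 2. Alternatives were DESeq2 1.42.0, limma-voom (limma 3.58.1), the edgeR likelihood ratio test, other scalings and filters, a replicate block, and leaving out each muscle. Positions and exon lengths came from GENCODE M21. The script was tested on simulated counts. With 3 muscles a group, replicate counts in a group had a chi-square of 7.62 to 21.4 per degree of freedom, where sampling noise gives about 1, so each was kept as a separate sample.

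Genes, roles and lists were chosen with earlier results of these data known. Full values are given for the gene with the highest mean CPM and that with the largest absolute log2 fold change in each of 5 roles, for genes with an unadjusted p under 0.05, and for Yap1. Of the other pathway genes, those with an unadjusted p under 0.05 and the 3 with the largest absolute log2 fold change are named, and, outside the lists, the 5 genes most alike over libraries with a mean of at least 5 CPM. The values of 1 gene of the pathway lists are not reported here.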

Additional observations from a re-analysis of the deposited data

How the results depend on the processing

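Each setting below changed 1 choice, and the cause of a change was not tested. In every fit tried, 0 of the 41 genes and 0 of the 103 other pathway genes were called, and the smallest adjusted p of any of the 41 was 0.550, for Igtp without control muscle 1. Yap1 passed the threshold by DESeq2 (log2 fold change -1.10) and by the likelihood ratio test (-1.10), each of which called 5 genes in all. With 1 muscle left out at a time, 0 to 6 of the 41 genes had an unadjusted p under 0.05, 2 to 12 lay fully above the controls and 0 to 1 fully below. In the same fits 5.43 to 11.8% of all genes lay above and 5.08 to 12.0% below. At an unadjusted p under 0.05, 0.552 to 3.82% of all genes were higher and 0.416 to 3.42% lower. The median log2 fold change ran from -0.098 to 0.19 for the sensors and from -0.069 to 0.068 for the antiviral effectors. The longer ISRE lowered the share of genes with a match to 12.1%. Of the 41 genes, 17 kept the sign of their log2 fold change in every alternative that held them (Zbp1 dropped out under the filter of at least 10 counts in every library), and 24 lost it in some fit with a muscle left out and in no other. Those ranges were, in log2 units, H2-D1 -0.016 to 0.30, H2-K1 -0.16 to 0.14, Nlrc5 -0.080 to 0.44, Psme1 -0.15 to 0.035, Psme2 -0.014 to 0.31, Irf7 -0.19 to 0.049, Ddx58 -0.098 to 0.10, Dhx58 -0.42 to 0.021, Tlr3 -0.11 to 0.59, Trim25 -0.29 to 0.18, Ifit2 -0.20 to 0.15, Ifi27 -0.13 to 0.13, Ifi35 -0.085 to 0.14, Ifi44 -0.37 to 0.021, Rsad2 -0.20 to 0.098, Oasl2 -0.10 to 0.37, Bst2 -0.054 to 0.19, Xaf1 -0.081 to 0.31, Rnf213 -0.16 to 0.15, Parp14 -0.11 to 0.091, Gbp2 -0.11 to 0.50, Gbp3 -0.18 to 0.33, Gbp7 -0.31 to 0.015, Iigp1 -0.079 to 0.61. For the 17 they were B2m 0.055 to 0.28, Tap1 0.13 to 0.62, Tap2 0.28 to 0.44, Tapbp 0.075 to 0.17, Stat2 0.070 to 0.38, Irf1 0.11 to 0.25, Irf9 0.21 to 0.48, Ifih1 0.11 to 0.22, Zbp1 0.84 to 1.12, Eif2ak2 0.045 to 0.34, Isg15 -0.51 to -0.13, Usp18 -0.37 to -0.019, Ifit1 0.39 to 0.63, Ifit3 -0.27 to -0.060, Ifitm3 0.30 to 0.55, Igtp 0.25 to 0.79, Irgm1 0.093 to 0.23.

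The labels state a pairing of both muscles of an animal but not that a number marks an animal. The numbers were therefore not taken as pairs. Deviations of same-numbered muscles correlated at -0.065, 0.20 and -0.32, and those of differently numbered muscles at -0.36 to 0.38. Since deviations within a group of 3 sum to 0, these values cannot decide whether a number marks an animal. With a replicate block, 0 of the 41 genes were called and 1 had an unadjusted p under 0.05. By same-numbered pairs, which may not be animals, 10 of 41 (24.4%, against 8.54% of all genes) were higher in every pair. Lower in every such pair was 1 gene, Usp18 (2.44%, against 8.93% of all genes). The block changed no other call. With 3 muscles a group, the intervals of most of these genes reached past a 1.5-fold change, and Zbp1 and Cxcl10 rest on few reads.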
